A study of Bos taurus with 8 samples.

Results

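RNA-Seq was performed on 8 bovine tissues, and the 200 genes with the most even transcript level across them are described here. The tissues were nucleated blood cells, whole testes, rumen, frontal cortex, uterus intercaruncular, ileum, mammary/parenchyma (mammary gland below) and abomasum, with 1 library each and no treatment named in the labels. Whole testes and the other solid organs are mixtures of many cell types, and the labels give neither the animal, its age nor its sex, so tissue, animal and library cannot be told apart. The genes were chosen from their values in these 8 libraries: a locus had to carry a single transcript identifier, span at least 300 and fewer than 300000 bases and reach at least 10 FPKM (fragments normalized to transcript length and sequencing depth) in every library, and the 200 with the smallest standard deviation (SD) of log2(FPKM + 1) over the libraries were taken.

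Of 36801 loci in the table, 24886 carried an identifier, 22793 carried a single one, 19837 of these had a span within the limits, and 3006 reached 10 FPKM in all 8 libraries. These 3006 broadly expressed genes are the background for the comparisons below, and the 200 most even genes make up 6.65% of them. Because the choice rests on the same values, the evenness of the 200 genes over the 8 libraries is a description and was not tested. What the choice did not use is their position, their span within the limits and, when a library is left out of the choice, their level in that library.

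Genes with an even level across tissues are often called housekeeping genes, since many of them serve functions that nearly every cell needs, such as making proteins, processing RNA, degrading proteins and moving vesicles. A few of them are used as internal references when transcript levels of different tissues are compared, which requires that their level does not depend on the tissue. Testis is known to be an unusual tissue in this respect, because germ cells transcribe a large part of the genome. The table does not pair its identifiers with gene symbols, so the roles of the single genes are not given here and genes are named by position on the UMD3.1 assembly. The labelled tissues could not be checked against marker genes for the same reason.

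Depth was recovered from short loci and is scaled by the authors' software. By this estimate the shallowest library was mammary gland, with 6021000 scaled reads from 36 short loci. The deepest was rumen, with 15484000 from 178. The estimates are approximate, since they assume a fragment length, and they were not checked against the sequenced depth. On a transcript of 1000 bases, 60.2 to 154.8 reads made up a level of 10 FPKM. The libraries also differed in scale over the 3006 background genes, whose median log2 ratio to the mean over libraries was 0.24 in rumen and -0.21 in uterus, and -0.14 to 0.05 in the 6 others. Values are given as deposited, and the choice after removal of these shifts is given where it differs.

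The SD of the 200 genes ran from 0.069 to 0.29 on the log2 scale, with a median of 0.25, while the median over the 3006 genes was 0.60. The ratio of the highest to the lowest library, on the FPKM + 1 scale, had a median of 1.65 in the 200 genes and of 3.43 in the background. It stayed under 5/4 in 2 genes and under 1.5 in 35, and reached 1.97 at most. In 36 of the 200 genes every library lay within 25% of the gene's own mean (at most 5/4 and at least 4/5 of it, on the FPKM + 1 scale), in 82 a single library lay beyond it, and in 72 and 10 genes there were 2 and 3 such libraries. Even the most even genes of these tissues thus usually differed by more than 1.5-fold between some pair of libraries.

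The gene with the smallest SD was ENSBTAT00000003274 on chromosome 15, from 78488452 to 78570865. Its FPKM was 21.5 in nucleated blood cells, 21.3 in whole testes, 20.3 in rumen, 20.2 in frontal cortex, 18.8 in uterus, 20.8 in ileum, 19.0 in mammary gland and 20.9 in abomasum. The libraries fell within a range of 1.13-fold, with uterus and mammary gland at the lower end. It was followed by ENSBTAT00000046133 on chromosome 5, from 30967117 to 30982216, with an FPKM of 24.2 in nucleated blood cells, 20.7 in whole testes, 20.6 in rumen, 20.9 in frontal cortex, 21.2 in uterus, 19.9 in ileum, 21.2 in mammary gland and 20.2 in abomasum. In this gene 7 libraries lay between 19.9 and 21.2 and nucleated blood cells stood above them.

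The spread of these genes was set against counting error for assumed transcript lengths, since the lengths themselves are not in the table. On a transcript of 1000 bases, Poisson error at the recovered depth corresponds to an SD of 0.098 for the gene on chromosome 15 and of 0.097 for that on chromosome 5, above the observed 0.069 and 0.083. On a transcript of 2000 bases it corresponds to 0.070 and 0.068. Over the 200 genes the median counting SD was 0.082 for 1000 bases and 0.058 for 2000 bases. The median share of the observed variance was 11.9% and 5.95%, against 1.54% and 0.77% in the background. These values describe the genes, because the observed SD is what they were chosen on and it also holds differences between tissues, animals and libraries. At the recovered depth, the observed SD was at or below the counting SD of a transcript of 1000 bases in 2 of the 200 genes. A larger true depth would lower the counting SD.

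At the other end of the choice, the last gene taken lies on chromosome 13 from 75284532 to 75305771, with an SD of 0.28941. Its FPKM was 28.8 in nucleated blood cells, 36.6 in whole testes, 20.2 in rumen, 25.9 in frontal cortex, 20.5 in uterus, 27.8 in ileum, 31.1 in mammary gland and 22.6 in abomasum, so that testes and mammary gland were high and rumen and uterus low. The first gene left out lies on chromosome 3 from 19412241 to 19414600 and had an SD of 0.28972, with its lowest value of 116.3 in uterus and its highest of 222.6 in rumen. Beside them, on chromosome 2 (35075185 to 35186510), a gene taken had an SD of 0.28928 and ranged from 19.2 in frontal cortex to 32.99 in rumen, and on chromosome 13 (57889645 to 57909996) a gene left out had an SD of 0.28974, with 68.5 in rumen and 36.9 to 44.1 in the 7 others. The limit therefore separates genes of nearly the same spread.

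The level of the even genes was moderate. Their mean level over the libraries, taken on the log2(FPKM + 1) scale and converted back, ran from 11.7 to 235.0 FPKM with a median of 30.0, against a median of 38.8 and a highest value of 5385 over the 3006 genes. Only 9 of the 200 genes (4.5%) had a level of at least 100 FPKM, against 16.2% of the background. When the background was divided into 4 classes of equal size by level, the lowest class held 85 even genes (11.3% of its genes), the following ones 49 (6.53%) and 40 (5.33%), and the highest, above 69.5 FPKM, 26 (3.46%). A gene with a mean near 10 FPKM passes the minimum only if none of its libraries is much lower. The part of the minimum in the fall with level was not tested. The 200 genes were 6.65% of the background at this minimum. With a minimum of 5 or 20 FPKM a new set of 200 genes was chosen, which shared 144 and 114 genes with the first and made up 4.28% of 4669 and 12.9% of 1555 background genes. From the lowest to the highest class, the set chosen at 5 FPKM held 78 genes (6.68% of the class), 38 (3.26%), 45 (3.86%) and 39 (3.34%), so that above the lowest class there was no steady fall with level. The set chosen at 20 FPKM held 99 (25.4%), 54 (13.9%), 33 (8.51%) and 14 (3.6%). The lowest class covered levels of 6.14 to 16.2 FPKM at the minimum of 5, 11.7 to 25.4 at 10 and 23.3 to 44.1 at 20.

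**Figure D1:**
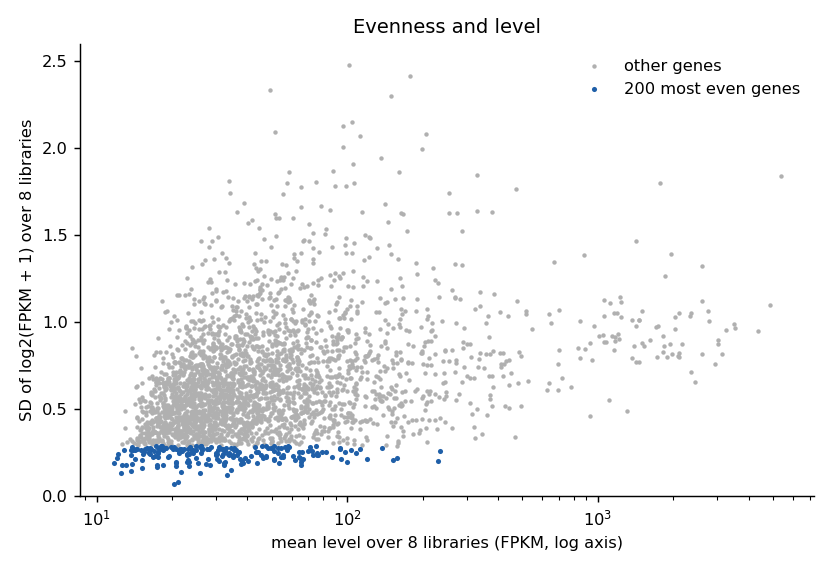
Each point is one of the 3006 genes with at least 10 FPKM in all 8 libraries, with its mean level in FPKM on a log axis and its SD of log2(FPKM + 1) over the libraries. The 200 most even genes (blue) lie below an SD of 0.29 and between 11.7 and 235.0 FPKM, and none of the genes above 235.0 FPKM is among them.

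The 3 most abundant even genes illustrate the upper end. On chromosome 29, a locus of 1992 bases (44759486 to 44761477) had an FPKM of 194.7 in nucleated blood cells, 187.9 in whole testes, 335.8 in rumen, 229.7 in frontal cortex, 227.0 in uterus, 259.0 in ileum, 234.4 in mammary gland and 239.1 in abomasum. Rumen stood apart at the top of this gene, while testes and blood cells were lowest. On chromosome 7, the locus from 2913860 to 2931918 ranged from 186.4 in frontal cortex to 281.4 in abomasum, with 252.1 in nucleated blood cells and 213.6 in whole testes. On chromosome 13, the locus from 63953073 to 64044034 ranged from 124.5 in frontal cortex to 203.1 in nucleated blood cells. Frontal cortex was thus the lowest library in the latter pair of genes, but not in the gene on chromosome 29.

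Among the 3 least abundant even genes, the locus on chromosome 16 from 72649206 to 72664699 had an FPKM of 13.6 in nucleated blood cells, 10.1 in whole testes, 10.8 in rumen, 11.2 in frontal cortex, 10.7 in uterus, 10.2 in ileum, 13.3 in mammary gland and 14.7 in abomasum. Testes and ileum were barely above the minimum of 10 FPKM in this gene. The other two were a locus on chromosome 10 (86339691 to 86384102), with 10.3 in whole testes and 17.5 in frontal cortex as its extremes, and a locus on chromosome 9 (98127834 to 98233181), with 10.1 in frontal cortex and 17.0 in rumen. In 16 of the 200 genes (8%) the lowest library was under 11 FPKM, against 7.49% of the background.

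The libraries did not share the remaining differences equally. Nucleated blood cells held the highest value in 51 of the 200 genes (25.5%), whole testes in 40 (20%) and rumen in 36 (18%), while ileum did so in 3 (1.5%). In the background the corresponding shares were 17.7% for nucleated blood cells, 25.7% for whole testes, 25.02% for rumen and 1.76% for ileum. The lowest value was found most often in frontal cortex, in 48 genes (24%), and least often in nucleated blood cells, in 7 (3.5%), against 21.7% and 11.7% of the background. The libraries most often highest and lowest depended on the choice. After the libraries were rescaled to the same median ratio and the genes chosen again, nucleated blood cells held the highest value in 14%, and frontal cortex was most often highest (19%) and also most often lowest (19.5%). With a minimum of 20 FPKM rumen was most often highest (25%) and uterus most often lowest (19.5%). Whole testes was most often highest without rumen (26%), without uterus (24%) and without nucleated blood cells (24.5%), and the most frequent lowest library was uterus without rumen (19.5%) and whole testes without frontal cortex (20%).

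In tissues made of many cells, fewer cells that express a gene and less of its RNA per cell cannot be told apart in these differences. The median deviation from the gene's own mean was 0.11 in nucleated blood cells, 0.10 in whole testes and 0.07 in rumen, and it lay between -0.08 and -0.04 in the 5 other libraries. The spread of these deviations over the 200 genes was widest in frontal cortex (SD 0.26), whole testes (0.25) and rumen (0.24), and narrowest in ileum (0.16), mammary gland (0.19) and uterus (0.19). In ileum 190 of the 200 genes (95%) lay within 25% of their own mean and in frontal cortex 145 (72.5%), and in the background the corresponding shares were 67.1% and 32.1%. Between pairs of libraries, the median difference in the even genes ran from 1.11-fold between mammary gland and ileum to 1.24-fold between whole testes and frontal cortex. The same pairs differed by 1.23-fold and 1.66-fold in the background, where the median was highest, at 1.76-fold, between whole testes and nucleated blood cells.

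**Figure D2:**
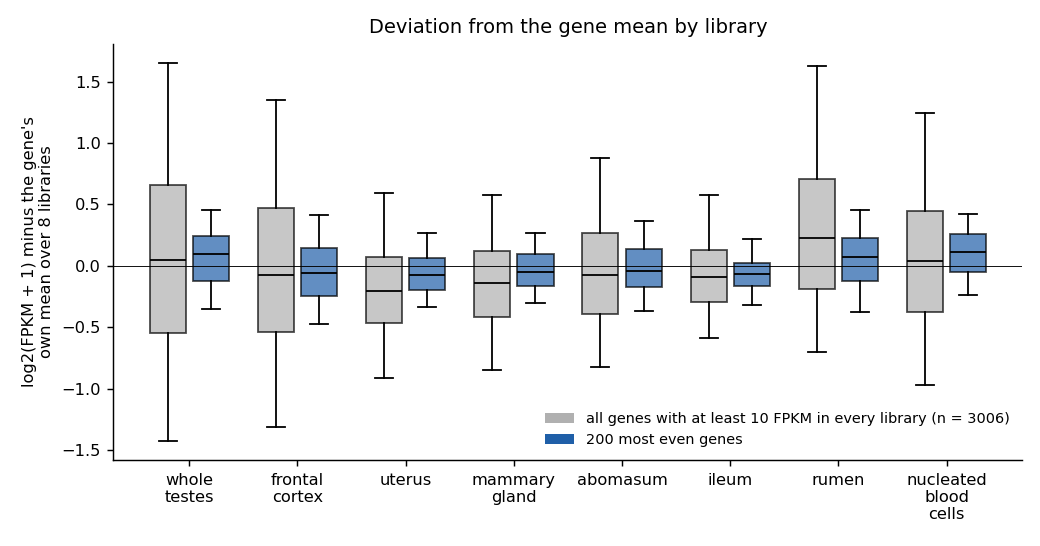
Boxes give the quartiles and median, and whiskers the 5th to 95th percentile, of log2(FPKM + 1) in a library minus the gene's own mean over the 8 libraries, for the 3006 broadly expressed genes (grey) and the 200 most even genes (blue). The medians of the even genes lie between -0.08 and 0.11, and the grey median is farthest from 0 in rumen (0.23) and uterus (-0.21).

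Single genes show how far a library could depart within the choice. In whole testes the largest excess was found on chromosome 7 (22709434 to 22743792), where the FPKM was 91.5 in testes and 47.7 to 62.2 in the 7 others, so that testes was 1.57-fold above the gene's own mean and did not overlap with them. The largest deficit in testes was found on chromosome 16 (51683116 to 51698728), with 12.5 in testes and 18.0 to 23.4 elsewhere. Here too testes lay outside the range of the others, in the opposite direction.

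In frontal cortex the extremes were a gene on chromosome 28 (5872188 to 5910538) with an FPKM of 44.3 and a gene on chromosome 2 (24804801 to 24861094) with an FPKM of 21.1, which were 1.42-fold above and 1.51-fold below their own means. For rumen, a gene on chromosome 7 (13741666 to 13753726) reached 38.9, 1.48-fold above its mean, and a gene on chromosome 6 (85824094 to 85878229) had 22.2, 1.41-fold below it. In nucleated blood cells the corresponding genes were on chromosome 18 (54707520 to 54721048), with 42.2, and on chromosome 28 (28334164 to 28457294), with 22.9. The excesses and deficits of these libraries were of like size, between 1.38-fold and 1.51-fold, and the limit on the SD bounds them in every library.

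In uterus the extremes were a gene on chromosome 1 (83593411 to 83609419) with 34.2 FPKM, 1.39-fold above its mean, and a gene on chromosome 25 (9501386 to 9551359) with 10.6, 1.5-fold below. In mammary gland they were a gene on chromosome 4 (93719882 to 93800800) with 21.0, 1.49-fold above, and a gene on chromosome 23 (27423438 to 27435718) with 38.2, 1.38-fold below. In abomasum they were a gene on chromosome 1 (136635856 to 136676836) with 40.9, 1.47-fold above, and a gene on chromosome 11 (68215016 to 68226257) with 14.2, 1.51-fold below. Ileum had the smallest upward departure of the 8 libraries, to 172.5 in a gene on chromosome 18 (55930395 to 55955785), and its largest deficit was 1.43-fold, in a gene on chromosome 15 (65186337 to 65219692) with 12.9.

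To examine evenness in a library that the choice had not used, each library was left out in turn, the 200 most even genes of the 7 others were chosen by the same rule, and their level in the library left out was read. Genes chosen in this way were more often close to their mean in the new library than the background in all 8 cases, but the margin differed widely. Within 25% of the mean of the 7 others lay 165 of the 200 genes (82.5%, 95% exact binomial interval 76.5 to 87.5) in ileum, against 60% of the background. The share was 76% in mammary gland (background 47.5%), 68% in uterus (43.4%), 58% in abomasum (42.8%), 48.5% in nucleated blood cells (31.9%), 40.5% in rumen (32%) and 38% in frontal cortex (26.8%). In whole testes it was 28% (21.9 to 34.8), against 23.7% of the background. The shares were not tested against the background. The intervals treat the 200 genes as independent, and they hold neither read-counting error nor differences between animals or libraries. With 1 library per tissue the differences between tissues have no replicate check.

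**Figure D3:**
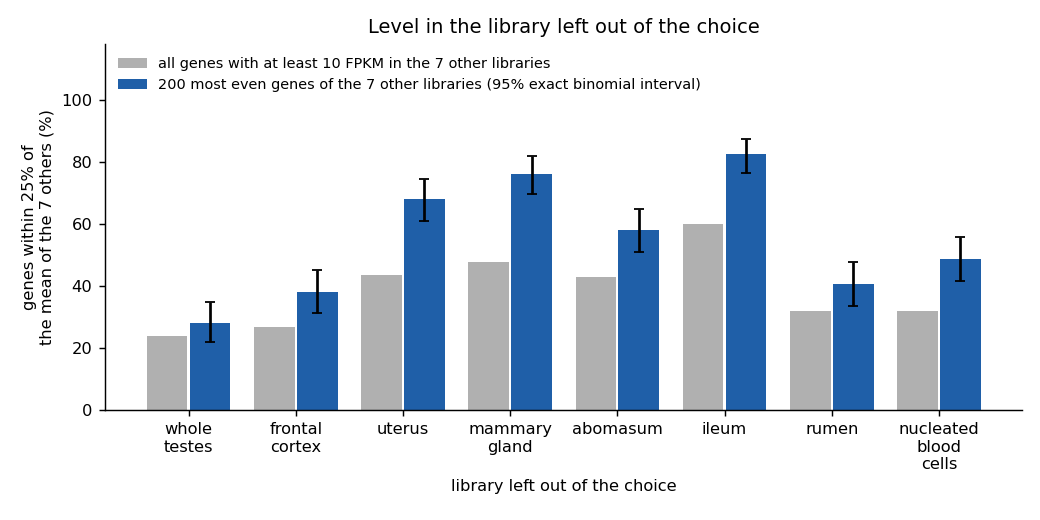
Bars give the percentage of genes whose level in the library left out lay within 25% of their mean over the 7 other libraries, for all genes with at least 10 FPKM in those 7 (grey) and for the 200 most even genes of those 7 (blue, with the 95% exact binomial interval). The blue bar is highest in ileum (82.5%) and lowest in whole testes (28%), where it stands near the grey bar (23.7%).

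In whole testes the genes that were even elsewhere lay mainly on the high side. Of the 200 genes chosen without testes, 147 were above their mean of the 7 others. The median difference was 0.47 on the log2 scale (background -0.03), and the quartiles were -0.03 and 1.15. At least 2-fold higher in testes were 58 of them (29%), against 17.7% of 3216 background genes, and at least 2-fold lower were 5 (2.5%), against 19.4%. The background thus held about as many genes 2-fold lower as 2-fold higher in testes, and the genes chosen for evenness in the other tissues did not. After the libraries had been rescaled to the same median ratio and the genes chosen again, the median difference was 0.33 (background -0.13). At least 2-fold higher were 42 genes and at least 2-fold lower 7, against 15.7% and 21.6% of the background.

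The upward shift in testes was seen at each level. Within the 4 classes of level over the 7 other libraries, the median difference of the chosen genes was 0.71, 0.46, 0.27 and 0.43 from the lowest class to the highest, and that of the background 0.26, -0.02, 0.02 and -0.45. The share at least 2-fold higher in testes was 35.4% of the 99 chosen genes in the lowest class (background 24%) and 12.5% of the 16 in the highest (background 9.45%). Of the chosen genes 195 were autosomal, with a median of 0.50, while 4 were X-linked, with a median of -0.78 (background of 98 X-linked genes -1.02).

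Genes far from even in testes include 2 that were among the most even elsewhere. ENSBTAT00000001128 on chromosome 1, from 72708757 to 72738166, had an FPKM of 327.1 in whole testes, and of 21.9 in nucleated blood cells, 14.4 in rumen, 16.0 in frontal cortex, 21.3 in uterus, 16.5 in ileum, 18.0 in mammary gland and 19.0 in abomasum. ENSBTAT00000029129 on chromosome 4, from 48870387 to 48923232, had an FPKM of 335.6 in whole testes and of 17.3 to 23.3 in the 7 others. Testes exceeded the mean of the other libraries 17.3-fold and 16.4-fold in these genes, which the choice over all 8 libraries leaves out.

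The remaining libraries showed smaller departures of this kind. Left out of the choice, nucleated blood cells lay above the mean of the others in 146 of the 200 genes then chosen (median 0.26, background -0.02), and at least 2-fold higher in 10 (5%, background 9.57%) and lower in 1 (0.5%, background 13.4%). When the libraries were rescaled and the genes chosen again, 109 genes lay above with a median of 0.03 (background -0.12), and the parts of the new scale and of the new choice in this change were not tested. Rumen lay above in 133 (median 0.22, background 0.24), with 17 genes at least 2-fold higher (8.5%, background 18.7%) and 4 lower (2%, background 4.42%). Here the direction turned after rescaling and a new choice, to a median of -0.18 (background -0.07). Of the 200 genes then chosen, 3 were at least 2-fold higher (background 12.1%) and 10 lower (background 9.08%). In frontal cortex 21 genes were at least 2-fold lower (10.5%, background 17.8%) and 11 higher (5.5%, background 11.7%), with a median of -0.18 (background -0.16). After rescaling and a new choice they were 15 and 12 of 200 (background 16.1% and 12.9%), with a median of -0.07 (background -0.10). In uterus and ileum 0 of the 200 genes chosen without that library differed 2-fold, against 8.85% and 3.7% of the background, and in mammary gland and abomasum 2 and 4 did so (1% and 2%, background 7.38% and 10%).

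**Figure D4:**
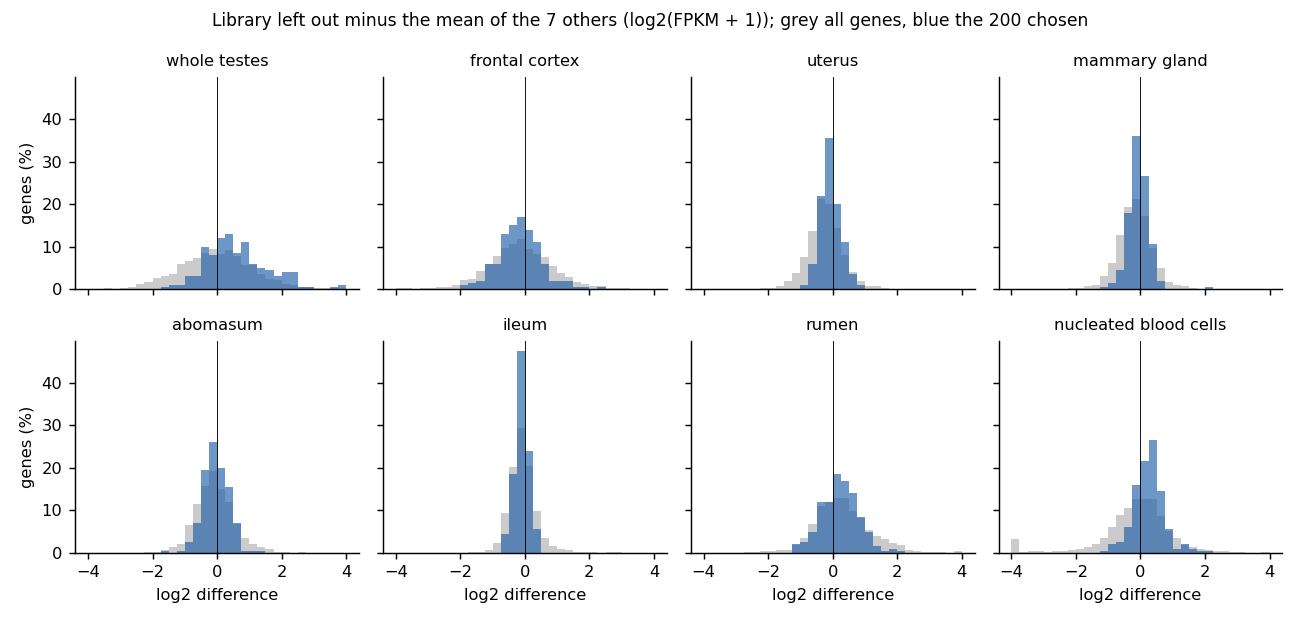
Each panel shows, for the library named above it, the distribution over genes of log2(FPKM + 1) in that library minus the mean of the 7 others, for all genes with at least 10 FPKM in the 7 others (grey) and the 200 most even of them (blue), as percentages of each set in steps along the log2 axis, with values beyond 4 in either direction placed in the outermost bars. The blue distribution is narrow around 0 in ileum and lies to the right of 0 in whole testes, with a median of 0.47.

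The genes with the largest departures in the other libraries are named by position. In frontal cortex a locus of 4625 bases on chromosome 29 (41657198 to 41661822) had 223.1 FPKM against 34.2 to 48.5 elsewhere, a 5.42-fold excess over the mean. In mammary gland a gene on chromosome 25 (34659650 to 34726176) had 152.0 against 26.5 to 38.1. In rumen a gene on chromosome 5 (110213001 to 110240563) had 69.2 against 12.5 to 17.3, and in nucleated blood cells a gene on chromosome 19 (54221464 to 54273873) had 85.9 against 14.5 to 25.7. Each of these genes was even in 7 libraries and at least 4-fold above their mean in the remaining library. The largest departure in abomasum was downward, on chromosome 25 (1351227 to 1365919), with 13.7 against 32.0 to 56.6. In uterus and ileum the largest were 1.87-fold, with 22.0 in uterus on chromosome 13 (52465223 to 52475836), and 1.65-fold, with 20.1 in ileum on chromosome 5 (97348105 to 97385488), both downward.

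How far the membership of the 200 genes rests on each library and setting was counted. Without ileum 183 of the 200 genes were chosen again, without mammary gland 178, without uterus 168 and without abomasum 164. Without nucleated blood cells 144 were, without frontal cortex 135, without rumen 134 and without whole testes 97. More of these genes were replaced when testes was left out than for any other library. A pseudocount of 0.1 kept 195, the coefficient of variation in place of the SD 184, the highest-to-lowest ratio 167, and rescaled libraries 138. A minimum of 5 FPKM kept 144 and a minimum of 20 FPKM kept 114, which is the number of the 200 genes with at least 20 FPKM in every library.

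**Figure D5:**
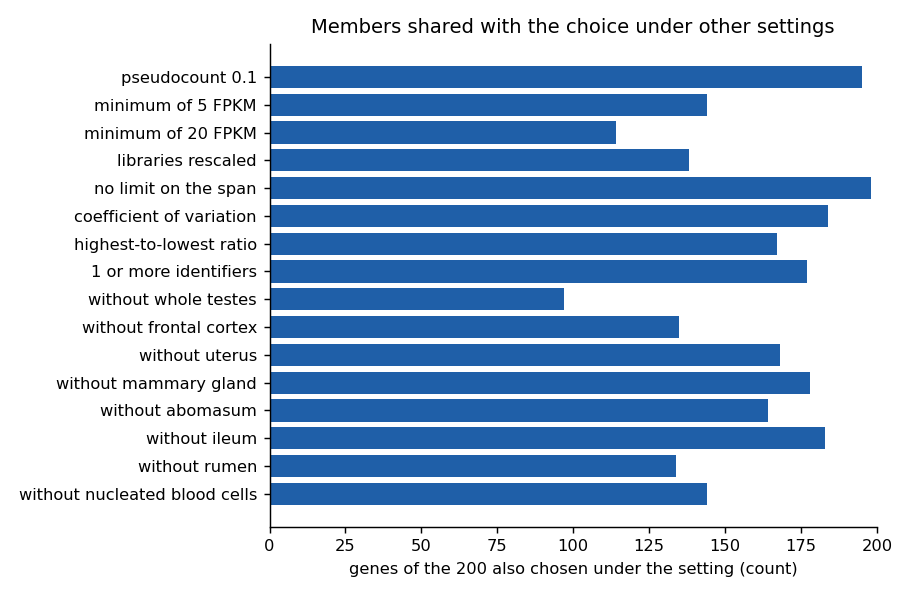
Bars give how many of the 200 most even genes were chosen again when the rule was applied with another setting or without the library named, for the settings in which 200 genes were chosen. The count ranges from 97 without whole testes to 198 without a limit on the span.

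In all 16 settings that choose 200 genes, 44 of the 200 genes were kept, and 78 were kept whichever library was left out. The 44 genes had a median SD of 0.21 and a median level of 40.6 FPKM, and the lowest level among them was 24.97, since the setting with a minimum of 20 FPKM is among the 16. The most even of them lies on chromosome 8 (60206439 to 60247232), with an FPKM of 32.9 in nucleated blood cells, 35.6 in whole testes, 37.7 in rumen, 31.3 in frontal cortex, 31.3 in uterus, 35.5 in ileum, 28.7 in mammary gland and 33.04 in abomasum. Rumen, testes and ileum were at its upper end and mammary gland at its lower end. It was followed by a gene on chromosome 17 (65950166 to 65979518), with 21.6 in mammary gland and 23.4 to 28.6 in the 7 others, and by a gene on chromosome 11 (105892487 to 105896031), with 31.0 in frontal cortex and 40.1 in rumen as its extremes. The next were a gene on chromosome 13 (52449200 to 52462376), from 25.2 in uterus to 36.7 in nucleated blood cells, and a gene on chromosome 2 (73827082 to 73836996), from 23.6 in ileum to 36.1 in whole testes. The pair of genes with the smallest SD of all is not among the 44, because each had a value under 20 FPKM and was kept in 15 of the 16 settings.

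The positions of the even genes were then compared with those of the background, since chromosome did not enter the choice and span entered it only through the limits, which both sets share. The even genes lay on all 29 autosomes and on X. Chromosomes 1 and 2 held 10 of 85 (11.8%) and 14 of 122 (11.5%) of their background genes, and chromosome 7 held 6 of 219 (2.74%), against 6.65% over all. Chromosome 19, with 15, held the most even genes and also the most background genes, 226. The shares of the chromosomes were not tested.

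On the X chromosome 3 of 88 background genes (3.41%) were among the 200, against 6.76% of 2914 on the autosomes. In the background the deviation of testes from the gene's own mean had a median of -0.80 for X-linked genes and of 0.07 for autosomal genes. The X-linked even genes had 20.7 FPKM in testes and 15.0 to 22.5 elsewhere (134023363 to 134039236), 52.0 in testes and 38.1 to 66.9 elsewhere (83607408 to 83616245), and 15.1 in testes and 12.6 to 25.03 elsewhere (65143639 to 65169143). In each of the 3 genes testes lay within the range of the other libraries, which the choice, made with testes included, favours.

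The span of the even loci, introns included, had a median of 21466 bases, against 19028 in the background. Of the 4 classes of equal size by span, the shortest, below 8633 bases, held 27 even genes (3.59%), and the others held 65 (8.65%), 53 (7.06%) and 55 (7.31%). Short loci were fewer among the even genes at either level: below the median level of 38.8 FPKM, 4.78% of the short loci and 9.66% of the longer ones were among the 200, and above it 3.07% and 5.10%. The number of other loci with an identifier within 100 kb had a median of 7 in both sets. The nearest of them was under 1 kb away or overlapped in 115 even genes (57.5%), against 51.9% of the background, and overlapped in 57 (28.5%), against 28.4%. Reads of overlapping genes may have been divided between them, so the levels of these 57 genes are uncertain. The same holds for 7 genes (3.5%) whose identifier stands at more than 1 locus, against 2.5% of the background.

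Some of the even genes were neighbours. There were 17 pairs of even genes under 100 kb apart, comprising 28 genes. Another even gene thus lay under 100 kb away from 14% of the 200 genes, and an even gene lay as close to 273 of the other 2806 background genes (9.73%), which is a description and was not tested. In 2 of these pairs both genes were listed with the same coordinates, on chromosome 18 (36939030 to 37097692, with levels of 23.1 and 42.8 FPKM) and on chromosome 3 (21553013 to 21566572, with 61.0 and 14.2), so their separate levels are uncertain. On chromosome 1 a run of 3 even genes lay between 83571775 and 83625122, with levels of 23.3, 24.3 and 26.4 FPKM. The gene with the smallest SD of all had an even neighbour on chromosome 15, from 78442325 to 78450685, which ranked 11 and had a level of 20.7 FPKM beside its own 20.3. The neighbours on chromosome 29 differed in level, with 235.0 and 93.4 FPKM.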

How the data were processed

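Total RNA of each tissue was sequenced as 1 library. The authors filtered single-end reads, aligned them to UMD3.1 with TopHat2 2.0.13 and ran the Cufflinks package with default parameters. The deposited values are FPKM, scaled between libraries by the authors' software, in a table of 28 pairs of libraries. The authors' fold changes, test statistics, p-values and q-values were not used. Groups were taken from the tissue labels.

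Levels were analysed as log2(FPKM + 1), so ratios slightly understate differences of low genes. Tissues were not tested against each other, since each had 1 library. The genes, lists and measures were chosen with earlier results of these data known. Identifiers matched 0 entries of the RefSeq gene table (ARS-UCD2.0), so groups of genes by symbol are not analysed here and no sequences are given. Genes named were the extremes of SD, level and deviation per library, the X-linked members and the first 5 kept in every setting. Those named for a library left out, and the neighbouring pairs, were chosen after their values were seen.

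Depth was recovered from loci of 88 to 130 bases without an identifier, as the smallest value giving whole reads (within 0.03) for at least 95% of them, under a fragment length of 200 ± 80 bases with a lower limit of 87. The selection step was run on simulated data in which the even genes were far more even than the rest. The depth step was run on values made with the same fragment model. These runs do not check the fragment length or genes near the limit of the choice. Alternatives covered the pseudocount, minimum, scaling, span, measure of evenness, number of genes and each library left out. Python 3.11.15, pandas 2.3.3, numpy 2.4.6 and scipy 1.17.1 were used.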

Additional observations from a re-analysis of the deposited data

How the results depend on the processing

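Values counted as unchanged if they moved by less than 1.5 times, and shares if they kept to their 95% binomial interval. The median SD, highest-to-lowest ratio, level and span of the even genes and their X-linked share were unchanged in all 18 settings. Each choice makes the SD and the ratio small, and the X-linked share rests on 3 genes, so these could hardly move. The median level was 22.4 FPKM with a minimum of 5 and 44.25 with a minimum of 20, against 30.0 as reported. Of the 200 genes, 97 to 183 were chosen again with a library left out, 97 being the choice without whole testes. A minimum of 20 FPKM kept 114 and a choice of 100 members kept 100, both by construction. Frontal cortex was the lowest library in 17% of 100 members, and in 19% to 23.5% with a library left out, but uterus was most often lowest without rumen and with a minimum of 20 FPKM (19.5% each). Nucleated blood cells were the highest in 14% after rescaling, and in 22.5% to 31.5% with a library left out, but whole testes was most often highest without uterus (24%) or rumen (26%), and rumen with a minimum of 20 FPKM (25%). Of 64 alternative shares within 25% in the library left out, 54 were unchanged. A limit of 1.5-fold admits more genes by construction and gave 73.5% in nucleated blood cells, 46.5% in whole testes, 69% in rumen, 66.5% in frontal cortex, 93% in uterus, 98% in ileum, 95.5% in mammary gland and 88.5% in abomasum. Rescaling gave 49.5% in rumen and 56% in nucleated blood cells, of which the cause was not tested. The shares of the background at the wider limit and after rescaling are not given, so these values are not set against all genes. The minimum of 10 FPKM and the depth of mammary gland limit the precision of low genes. No paired analysis was possible because there was 1 library for each tissue.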

Other observations

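Some loci outside the rule were as even as the 200 genes. Among 140 loci without an identifier that had at least 10 FPKM in all 8 libraries, 5 (3.57%) had an SD no larger than that of the last gene taken. The most even of them spans 22895 bases on chromosome 14 (71795171 to 71818065), with an FPKM of 31.2 in nucleated blood cells, 34.2 in whole testes, 25.5 in rumen, 34.3 in frontal cortex, 26.1 in uterus, 29.6 in ileum, 25.9 in mammary gland and 24.1 in abomasum. Of 410 loci with several identifiers, 28 (6.83%) were as even, the first of them on chromosome 25 (42234851 to 42322127), where 2 identifiers share a locus and the FPKM ran from 43.6 in ileum to 58.3 in nucleated blood cells. Of 28 loci spanning 300000 bases or more, 2 were as even, and of 3 loci under 300 bases 0 were. These loci were found after the values had been seen.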
